A study of Mus musculus with 6 samples.

Results

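The colony stimulating factors (CSFs) and their receptors were examined in mouse bone marrow macrophages as 9 genes: the receptor genes Csf1r, Csf2ra, Csf2rb, Csf3r, Kit and Flt3 and the ligand genes Csf1, Csf2 and Csf3. They were taken as all probe sets whose platform annotation gave exactly 1 symbol, that of one of these genes. This gave 17 probe sets for the 9 genes, out of 34945 probe sets with 1 symbol for 18193 genes in all. The probe set with the highest mean over the 6 arrays stood for a gene, and the others are given beside it.

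Expression was measured on Affymetrix Mouse Genome 430 2.0 arrays, on which a probe set reads the RNA of a gene, or of several similar ones, as a fluorescence intensity. All cells came from C57BL/6 bone marrow of mice without TNF receptors 1 and 2 (TNFR1-/-R2-/-), so both groups lacked these receptors. A retrovirus brought in a chimeric receptor, with the outside of mouse TNF receptor 1 and the membrane-spanning and intracellular parts of mouse RANK. RANK is the receptor that drives macrophages to form osteoclasts, and TNF given to the cells acts on it through the chimera. In the BM_wt group (n = 3 arrays) the RANK part was intact, and in the BM_mutant group (n = 3 arrays) inactivating mutations lay in its IVVY motif. Puromycin at 2 ug/ml was given for 3 days to select infected cells. Both groups were then kept for 24 hours with 44 ng/ml of M-CSF and 10 ng/ml of TNF, and the RNA of 6 dishes was pooled for each sample. Since M-CSF, the protein made from Csf1, was supplied to every dish, no array shows cells without stimulation of the Csf1r receptor. The study asked which genes of macrophages the IVVY motif regulates. Samples were prepared in 3 independent assays, and the titles number 1 array of each group as replicate 1, 2 or 3. The labels do not tie these numbers to the assays. Same-numbered arrays deviated together from their group means, and from this the number is taken here as the assay. The labels do not say whether these used different mice.

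CSFs are secreted proteins that keep myeloid cells alive and set how they multiply and mature. Csf1r, Kit and Flt3 are receptor tyrosine kinases of one family, which signal through the adaptor GRB2, PI3 kinase and ERK. Csf2ra, Csf2rb and Csf3r belong to the cytokine receptors, which have no kinase of their own and signal through JAK kinases and STAT5 or STAT3. In osteoclast formation M-CSF acts beside RANK ligand, as it keeps the precursors alive and raises their RANK.

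The arrays were alike in overall level, but GCRMA, named in the submitters' processing notes, makes arrays alike in distribution. This likeness therefore says nothing about the samples. The median intensity of the arrays was between 8.86 and 9.38. A probe set was tested when it lay above its own array's median on at least 3 arrays. All 11 macrophage markers fixed for this work passed this filter, with a summed intensity of 190947 to 212618 in the mutant and 191342 to 203359 in the wild type. The 8 osteoclast markers summed to 1117 to 1879 in the mutant and 8533 to 26846 in the wild type. The 9 stromal markers reached sums of 4647 (mutant) and 3351 (wild type) in assay 3, against no more than 162 in assays 1 and 2. Assay 3 thus stood apart in both groups by genes of connective tissue, and results that involve it are given with the values of the other assays. Tnfrsf1a, which encodes TNF receptor 1, read 678 to 1069 over the 6 arrays, but no source used here places its probe set relative to the deletion and the chimera, so it checks neither.

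Of the 9 genes, 5 could be tested and none of them passed the test between mutant and wild type. Csf1r, Csf2ra, Csf2rb and Csf3r were bright in every sample. Csf1 was read by 1 of its 4 probe sets, at low intensity. Csf2, Csf3, Kit and Flt3 lay below the array medians everywhere. By limma (no block, Benjamini-Hochberg adjustment) 0 of 22497 probe sets passed an adjusted p of 0.05, which is 0.0% of those tested, with a smallest adjusted p of 0.99998 and 198 (0.88%) at an unadjusted p under 0.05. When the replicate number entered the fit as a block, 0 passed as well (0.0%), with a smallest adjusted p of 0.0792 by limma and 1189 (5.29%) at an unadjusted p under 0.05. The count of 0 for the members is therefore the same as the background. None of the 7 osteoclast markers tested passed either, and the other of the 8, Itgb3, lay below the filter. The sums of the 8 did not overlap, at 1117 to 1879 (mutant) and 8533 to 26846 (wild type). Among single markers, Atp6v0d2 overlapped (298 to 555 and 447 to 1689), while Acp5 did not (220 to 818 and 3745 to 9497). Not passing this test therefore says little about a gene.

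**Figure D1:**
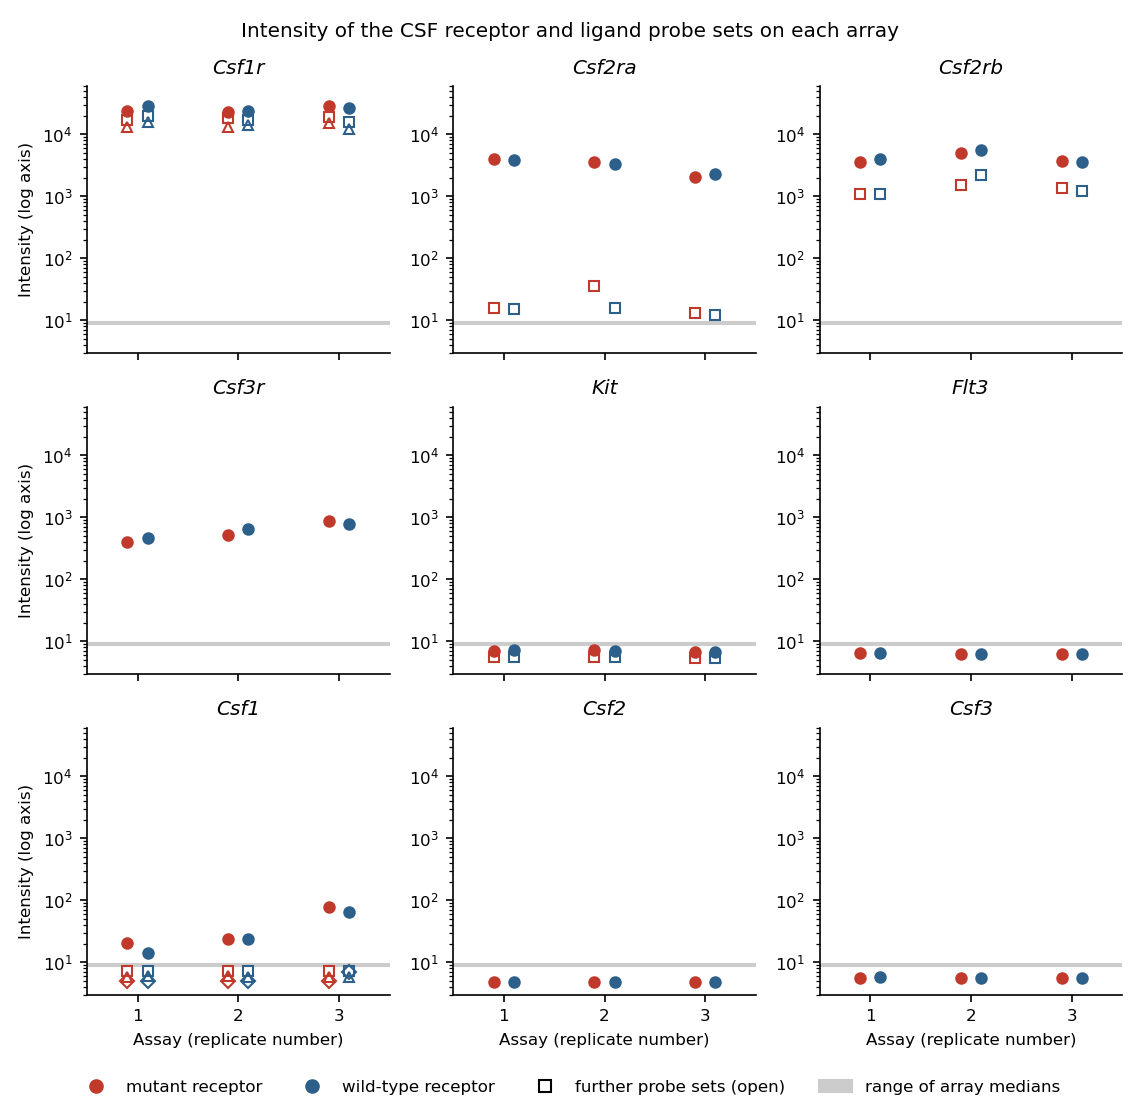
Each panel shows 1 gene, with the intensity on a log axis against the assay number, red for the mutant and blue for the wild-type receptor. Filled points are the probe set with the highest mean, open points the other probe sets, and the grey band is the range of the array medians (8.86 to 9.38), under which all points of Kit, Flt3, Csf2 and Csf3 lie.

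Csf1r encodes the M-CSF receptor, on which macrophages depend for survival. Its brightest probe set read 23347, 23089 and 28650 on mutant arrays 1, 2 and 3, and 29009, 23642 and 26181 on wild-type arrays 1, 2 and 3. The groups overlapped, with the highest reading on wild-type array 1 and the lowest on mutant array 2. The group means were 25029 ± 3139 for mutant and 26277 ± 2685 for wild-type arrays (SD, n = 3 arrays a group). The log2 difference, mutant minus wild type on the scale of log2(intensity + 16), was -0.07 ± 0.14 SE, with a 95% interval from -0.42 to 0.28 (limma, adjusted p = 0.99998). With the block the interval ran from -0.40 to 0.25.

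Within the same-numbered pairs the Csf1r difference changed sign. It was -0.31 in assay 1, -0.03 in assay 2 and 0.13 in assay 3. The other 2 Csf1r probe sets gave mean log2 differences of 0.03 ± 0.12 SE and 0.00 ± 0.13 SE. One of them differed by -0.25, 0.07 and 0.26 in assays 1, 2 and 3, and the other by -0.24, -0.09 and 0.32. All 3 probe sets were thus lower in the mutant in assay 1 and higher in assay 3. They read the same RNA, so this is no independent repeat.

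Csf2ra encodes the alpha chain of the GM-CSF receptor, which binds GM-CSF and needs the beta chain to signal. Its brightest probe set read 4050, 3555 and 2029 on mutant arrays 1, 2 and 3, and 3869, 3286 and 2249 on wild-type arrays 1, 2 and 3. Both arrays of assay 3 were the lowest, and within each assay the groups lay close together. The group difference was 0.01 ± 0.34 SE on the log2 scale, with pair differences of 0.07, 0.11 and -0.15. With the block its 95% interval was -0.25 to 0.27, against -0.84 to 0.86 without. A second Csf2ra probe set was dim, between 12.1 and 15.9 on 5 arrays and 35.6 on mutant array 2. It was the 1 member probe set with a higher mutant reading in all 3 pairs, at 0.01, 0.69 and 0.04 on the log2 scale, so its mean difference of 0.25 ± 0.24 SE came mostly from that array.

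Csf2rb encodes the beta chain shared by the receptors for GM-CSF, IL-3 and IL-5. Its brightest probe set read 3519, 4898 and 3708 on mutant arrays 1, 2 and 3, and 3946, 5509 and 3508 on wild-type arrays 1, 2 and 3. Both arrays of assay 2 were the highest, and the groups overlapped. The log2 difference was -0.08 ± 0.22 SE, and the pairs differed by -0.16, -0.17 and 0.08. The second Csf2rb probe set read 1087, 1504 and 1357 in the mutant and 1083, 2210 and 1219 in the wild type, and differed by -0.13 ± 0.31 SE on the log2 scale. The probe sets disagreed most in assay 2, where the second gave -0.55.

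Mice carry a close copy of this gene, Csf2rb2, which encodes a beta chain specific for IL-3. A further probe set is annotated to both copies and was not counted among the 17, since its signal cannot be split between them. In assays 1, 2 and 3 its readings were 331, 217 and 404 for the mutant and 430, 549 and 367 for the wild type. Its log2 difference of -0.50 ± 0.27 SE was the largest of any probe set with a member's name, but it did not pass (limma, adjusted p = 0.99998, and 0.860 with the block). The pairs differed by -0.36, -1.28 and 0.13, so the direction did not hold in assay 3. The probe set annotated to Csf2rb2 alone differed by 0.05 ± 0.13 SE and read 1748 to 2186 in the mutant and 1687 to 2049 in the wild type.

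Csf3r encodes the G-CSF receptor, best known from neutrophils and also present on monocytes. Its 1 probe set read 403, 522 and 865 on mutant arrays 1, 2 and 3, and 462, 640 and 765 on wild-type arrays 1, 2 and 3. Both arrays of assay 3 were the highest and both of assay 1 the lowest, while the groups overlapped. The log2 difference was -0.10 ± 0.33 SE, with pair differences of -0.19, -0.29 and 0.17. With the block the interval narrowed from -0.94 to 0.74 to -0.44 to 0.24. Of 8 neutrophil markers with a probe set, 7 (among them Elane, Mpo, Camp and Ngp) lay below the median on all 6 arrays. The exception, S100a8, read 128 (mutant) and 212 (wild type) in assay 3 and 431 to 677 elsewhere. Which cells gave the Csf3r reading was not tested.

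Kit, the receptor of stem cell factor on progenitors and mast cells, and Flt3, a receptor of early progenitors and dendritic cells, were not read above the array medians by any probe set. The 2 Kit probe sets lay between 5.41 and 7.25 and the Flt3 probe set between 6.21 and 6.40 over the 6 arrays. The 8 mast cell markers lay below the median on all 6 arrays too, as did 4 of 6 dendritic cell markers and 3 of 5 progenitor markers. The other dendritic cell markers were Itgax, at 177 to 494, and Ccr7, which read 103 on wild-type array 3 and lay below the array medians elsewhere. Of the other progenitor markers, Cd34 read 57 (mutant) and 114 (wild type) in assay 1 and lay below the medians elsewhere. Meis1 was dim, at no more than 22.2. Whether progenitors or dendritic cells were present was not tested. The Kit and Flt3 readings are too low to carry an order, so no difference between groups is given for them.

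Among the ligands, Csf1 encodes M-CSF itself, which stromal cells, osteoblasts and macrophages can make. Its brightest probe set read 20.2, 23.5 and 78.7 on mutant arrays 1, 2 and 3, and 14.0, 23.6 and 65.6 on wild-type arrays 1, 2 and 3. Both arrays of assay 3 stood above the other 4, and the groups overlapped. The log2 difference was 0.16 ± 0.54 SE, with a 95% interval of -1.19 to 1.52, and blocking on replicate number gave 0.16 ± 0.09 SE with an interval of -0.10 to 0.42. The pairs differed by 0.27, 0.00 and 0.22. Most of these readings lay near the pseudocount of 16, which shrinks their differences. The other 3 Csf1 probe sets read between 4.90 and 7.20 on all 6 arrays, below every array median. No source used here places the 4 probe sets on the Csf1 transcripts.

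Csf2, which encodes GM-CSF, and Csf3, which encodes G-CSF, were not read above the array medians on any array. The Csf2 probe set lay between 4.78 and 4.89 and the Csf3 probe set between 5.56 and 5.72, in both groups. These cells had received TNF, and the arrays gave no detectable reading of either cytokine with the intact or the mutated RANK motif. With 3 arrays a group and no detection call in the intensities, a low level of these RNAs cannot be told apart from background.

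**Figure D2:**
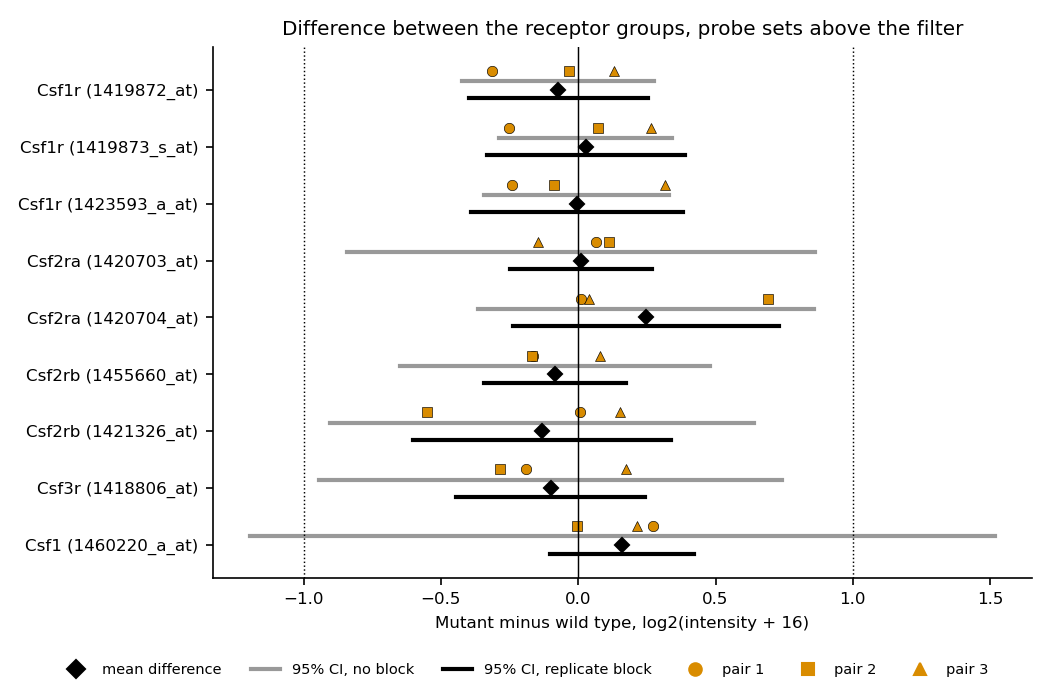
The 9 member probe sets above the filter are listed with their log2 difference between mutant and wild type (diamond), the 95% confidence interval without a block (grey) or blocked by replicate number (black), and the difference in each of the 3 pairs (orange circle, square and triangle). Dotted lines mark -1 and 1 on the log2(intensity + 16) scale, where a fold change of a dim probe set looks smaller than that of a bright one. All intervals cross 0, and the grey interval of Csf1 (-1.19 to 1.52) reaches past both dotted lines.

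Among the 5 tested genes the mutant mean was lower for 3 and higher for 2, and the median log2 difference was -0.07 beside 0.01 over all 10372 genes tested. None was lower in all 3 pairs and none higher, where 12.0% and 14.5% of all genes were. None was without overlap between the groups, beside 1.96% of all genes lower and 1.36% higher without overlap. The largest pair difference of the 5 genes, in either direction, was 0.31 on the log2 scale. With the block, the intervals of the brightest probe sets of Csf1r, Csf2ra, Csf2rb and Csf3r all lay between -0.44 and 0.27 on the log2 scale. For the dim Csf1 and second Csf2ra probe sets the pseudocount makes a given fold change smaller on this scale, so their intervals understate how far the RNA levels could differ. A p above the threshold does not show that the levels were equal, and these intervals give how far apart they could be.

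Several members read differently in the 3 assays, with both groups on the same side. A limma F test of the replicate number beside the group term, chosen after the values were seen, called 23.3% of all probe sets and 23.4% of all genes. It called Csf1 (limma, adjusted p = 0.0234), Csf2ra (0.0308) and Csf3r (0.0481), which is 3 of the 5 genes tested and with so few genes says little beyond that background. Csf2rb (adjusted p = 0.0633 by limma) and Csf1r (0.467) did not pass. With dim probe sets left in, the same F test called 259 of all probe sets instead of 5251 and none of the 5 genes, and without mutant array 1 or 3 or wild-type array 1 or 3 it called 0 of all probe sets. Csf3r and Csf2ra missed the threshold whichever array was left out, while Csf1 kept an adjusted p of 0.0408 without mutant array 2 and 0.0333 without wild-type array 2 (limma).

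On the log2 scale, assay 3 lay above the mean of assays 1 and 2 by 1.28 for Csf1 and 0.69 for Csf3r, and by -0.78 for Csf2ra. Of the 9 stromal markers 5 passed the filter (Col1a1, Col1a2, Col3a1, Sparc and Postn), and these, like Csf1, read highest in assay 3 in both groups. Col1a2, a fibrillar collagen, read 1719 (mutant) and 1109 (wild type) in assay 3 and no more than 16.1 elsewhere. Postn, a matrix protein, read 354 and 183 there and no more than 9.85 elsewhere. Dcn reached 62.9 on wild-type array 3 and stayed at 4.61 on its mutant counterpart, where Csf1 was highest. Cxcl12 read 9.94 (mutant) and 17.0 (wild type) in assay 3, and Lum and Thy1 stayed below the median on all 6 arrays. The part of these markers in the Csf1 reading was not tested. In such bulk RNA, fewer cells of a type and less RNA per cell cannot be told apart.

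**Figure D3:**
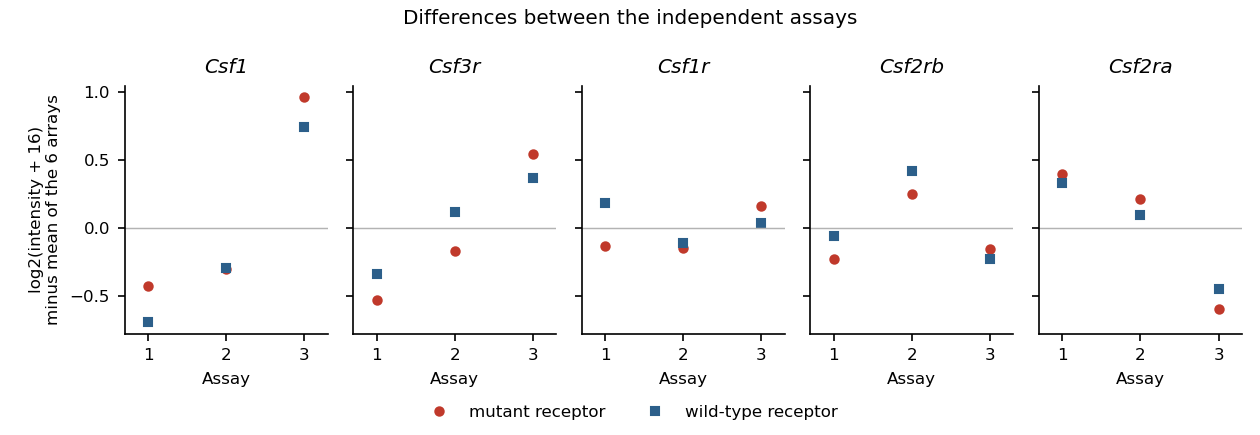
For each of the 5 tested genes, log2(intensity + 16) minus its mean over the 6 arrays is plotted against the assay number, red circles for mutant and blue squares for wild-type arrays. Red and blue lie close within an assay for Csf1, Csf3r and Csf2ra, while assay 3 is apart from assays 1 and 2 by 1.28, 0.69 and -0.78.

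Genes whose intensities ran most like each member over the 6 arrays are given as a description, since same-numbered arrays resembled each other and any gene that follows the replicate number correlates. For Csf1 these were Tagln (Pearson r = 0.997), Taf15 (0.995) and Acta2 (0.995), of which Tagln and Acta2 encode proteins of the contractile apparatus of smooth muscle and myofibroblasts. Acta2 read 2928 (mutant) and 2273 (wild type) in assay 3 and 154 to 308 elsewhere. For Csf3r they were 1110032A03Rik (r = 0.997), Ninj1 (0.996) and Ptpro (0.994), a phosphatase at the cell surface. For Csf2ra they were Plp2 (0.999), Nsmce4a (0.998) and Tedc1 (0.998). For Csf2rb they were Nagk (0.994), Hlx (0.994) and Cds2 (0.993), and for Csf1r Ctsb (0.965), which encodes cathepsin B, Zhx1 (0.965) and Stambp (0.954).

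Promoters are shown for Csf1, Csf3r and Csf2ra, the 3 genes that the F test between assays called. Of these, the ligand Csf1 and the receptor Csf3r read highest in assay 3 and the receptor Csf2ra lowest. RefSeq's table held a promoter for 6 of the 9 genes, and the 250 bases before the annotated start were searched on both strands for an NF-kB consensus of 10 letters, the AP-1 motif TGANTCA and the PU.1 motif GAGGAA. NF-kB acts below RANK and TNF receptors, and PU.1 is the factor of the myeloid lineage. Capitals mark the matches, and sequences run 5′ to 3′ along the gene's strand in build GRCm38.p6. Csf1 lies at chr3:107760470-107760719 on the minus strand, Csf3r at chr4:126024409-126024658 on the plus strand and Csf2ra at chr19:61228419-61228668 on the minus strand.
Csf1: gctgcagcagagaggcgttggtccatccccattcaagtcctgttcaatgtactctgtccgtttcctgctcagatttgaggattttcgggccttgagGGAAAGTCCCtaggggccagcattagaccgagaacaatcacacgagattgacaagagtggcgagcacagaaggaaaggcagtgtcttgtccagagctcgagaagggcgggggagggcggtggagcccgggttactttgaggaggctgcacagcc
Csf3r: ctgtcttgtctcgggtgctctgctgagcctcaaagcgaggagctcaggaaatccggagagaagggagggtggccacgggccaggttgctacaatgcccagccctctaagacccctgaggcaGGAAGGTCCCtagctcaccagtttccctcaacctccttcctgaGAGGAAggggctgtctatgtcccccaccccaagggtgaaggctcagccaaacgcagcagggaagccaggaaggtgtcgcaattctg
Csf2ra: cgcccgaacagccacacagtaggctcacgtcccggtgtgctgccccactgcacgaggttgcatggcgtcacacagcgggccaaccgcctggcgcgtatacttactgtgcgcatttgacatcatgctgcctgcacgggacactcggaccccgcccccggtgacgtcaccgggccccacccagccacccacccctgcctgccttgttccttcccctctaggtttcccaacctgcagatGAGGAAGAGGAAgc

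The NF-kB consensus matched once in Csf1, 154 to 145 bases before the start, and once in Csf3r, 129 to 120 bases before it. Both matches lie on the opposite strand, and the consensus occurs in 7.25% of 32851 promoters of this length. The PU.1 motif matched once in Csf3r, 86 to 81 bases before the start, and in Csf2ra at 14 to 9 and, directly after it, 8 to 3 bases before the start. Kit holds it as well, and so do 23.3% of the 32851 promoters. The AP-1 motif, present in 6.75% of promoters, matched in none of the 6 genes, and Csf2 and Flt3 held no match of the 3 motifs. Matches overlapped one another in none of the promoters shown. A match describes letters in this window and is no measured site. The part of these motifs in the differences between assays was not tested.

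Around the receptors, 63 pathway genes were listed by role, of which 60 had a probe set of 1 symbol and 49 passed the filter. None passed the limma test without or with the block. The mutant mean was lower for 27 and higher for 22, where 46.8% of all genes were lower. The median log2 difference was -0.01, and 0.01 for all genes. Lower in all 3 pairs were 6 of the 49 and higher 4, where 12.0% and 14.5% of all genes were. 1 of the 49, Vav1, was higher without overlap and none lower, beside 1.36% and 1.96% of all genes.

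Other ligands of these receptors were mostly undetected. Il34, the second ligand of Csf1r, read 4.09 to 4.16, and Il3 and Il5 lay between 4.36 and 5.11, all below the array medians. Kitl, the ligand of Kit, read 386, 485 and 342 on mutant arrays 1, 2 and 3, and 388, 231 and 237 on wild-type arrays 1, 2 and 3. Its log2 difference was 0.50 ± 0.25 SE (limma, adjusted p = 0.99998, and 0.859 with the block), with pair differences of -0.01, 1.02 and 0.50, so the groups overlapped through assay 1. A second Kitl probe set read 109, 59.4 and 69.1 in the mutant and 93.1, 41.0 and 42.4 in the wild type. It was higher in the mutant in each pair, as were 14.5% of all genes. Its difference of 0.38 ± 0.33 SE did not pass either. Further Kitl probe sets lay below the filter, at 7.72 to 12.0 and at 5.89 to 6.01. With the mean of all Kitl probe sets the difference was 0.21 ± 0.16 SE. Il3ra, the alpha chain of the IL-3 receptor, differed by -0.11 ± 0.15 SE, and Adam17, the protease that sheds Csf1r from the cell surface, by 0.01 ± 0.13 SE.

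Of 18 tested kinases, adaptors and phosphatases that act at the receptors, 9 were lower and 9 higher, with a median of 0.03. Fgr, a kinase of the SRC family in myeloid cells, read 124, 36.0 and 72.1 on mutant arrays 1, 2 and 3, and 207, 173 and 115 on wild-type arrays 1, 2 and 3. Its difference was -1.04 ± 0.41 SE, lower in each pair by -0.67, -1.87 and -0.57, though mutant array 1 lay above wild-type array 3 and the test was not passed (limma, adjusted p = 0.99998, and 0.859 with the block). Vav1 read 844, 896 and 977 in the mutant and 810, 740 and 789 in the wild type, a difference of 0.21 ± 0.10 SE without overlap. Among PI3 kinase genes, Pik3cg differed by 0.53 ± 0.60 SE and Pik3cd by -0.09 ± 0.11 SE. Grb2 had a difference of -0.08 ± 0.13 SE, and Inpp5d, a phosphatase that limits PI3 kinase signals, one of 0.16 ± 0.20 SE.

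For all 7 JAK and STAT genes the mutant mean was the lower one, by a median of -0.13, where 46.8% of all genes were lower. By pair the median was -0.12 for assay 1, -0.11 for assay 2 and 0.01 for assay 3. None passed and 1, the dim Jak3 (15.4 to 27.9), was lower in all 3 pairs. Stat3, which acts below the G-CSF receptor, read 1082, 899 and 1576 on mutant arrays 1, 2 and 3, and 1363, 1361 and 1565 on wild-type arrays 1, 2 and 3. Its difference was -0.30 ± 0.23 SE, with pair differences of -0.33, -0.59 and 0.01. With the mean of all Stat3 probe sets the difference was -0.15 ± 0.13 SE. The JAK kinases Tyk2 and Jak2 differed by -0.14 ± 0.12 SE and -0.17 ± 0.22 SE. With gene means they differed by -0.07 ± 0.08 SE and -0.31 ± 0.29 SE. Stat5a and Stat5b, the factors below the GM-CSF receptor, differed by -0.01 ± 0.23 SE and -0.02 ± 0.32 SE, close to 0.

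Genes that STATs induce had pair differences of both signs. Of 7 listed, Cish, Socs1 and Socs2 lay below the filter, and the pair medians of the 4 tested were 0.03, 0.68 and -0.53. Socs3, an inhibitor of the G-CSF receptor, differed by -0.48 ± 0.49 SE, with pair differences of -0.61, 0.49 and -1.30. Bcl2l1, which protects cells from apoptosis, differed by 0.53 ± 0.67 SE, with pair differences of 0.42, 1.44 and -0.26. Its difference was 0.015 without mutant array 2 and 1.21 without mutant array 3. The kinase gene Pim1 differed by 0.01 ± 0.30 SE. Osm, a cytokine gene induced through STAT5, had a difference of 0.20 ± 0.24 SE.

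Of 12 tested genes that ERK induces or that limit it, 7 were lower and 5 higher, with pair medians of 0.09, 0.73 and -0.51. Dusp5 read 16.6 to 22.4 on 5 arrays and 82.6 on wild-type array 3, which set its difference of -0.55 ± 0.43 SE. Egr2 differed by -0.43 ± 0.55 SE, Spred1 by -0.14 ± 0.24 SE and Spred2 by 0.56 ± 1.23 SE. With the block these SEs were 0.23, 0.23 and 0.42. The F test between assays called 6 of the 12, which were Egr1, Dusp6, Etv5, Ccnd1, Ets2 and Spred2, named after their values were seen, beside 23.4% of all genes. Each of these calls was lost without mutant array 1 or 3 or wild-type array 1 or 3. Ccnd1, the cyclin D1 gene through which M-CSF drives the cell cycle, read 2643, 3014 and 261 on mutant arrays 1, 2 and 3, and 1784, 1701 and 347 on wild-type arrays 1, 2 and 3. Dusp6, a phosphatase of ERK, read 2378, 1736 and 245 in the mutant and 2281, 878 and 180 in the wild type. Both were lowest on the arrays of assay 3, in both groups.

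Of the 4 factors that act on the Csf1r gene, none passed the test between the groups. Spi1, which encodes PU.1, differed by -0.06 ± 0.25 SE, Cebpa by 0.23 ± 0.49 SE, Cebpb by -0.13 ± 0.44 SE and Runx1 by 0.14 ± 0.18 SE. With the block these SEs were 0.08, 0.13, 0.09 and 0.19. The F test between assays called Spi1, Cebpa and Cebpb (limma, adjusted p = 0.0365, 0.0288 and 0.0242). Cebpa read 1625 (mutant) and 1262 (wild type) in assay 3 and at least 2854 elsewhere, and Spi1 2179 and 2143 there and at least 2992 elsewhere. Over all 49 pathway genes the F test called 17, or 34.7%, beside 23.4% of all genes.

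**Figure D4:**
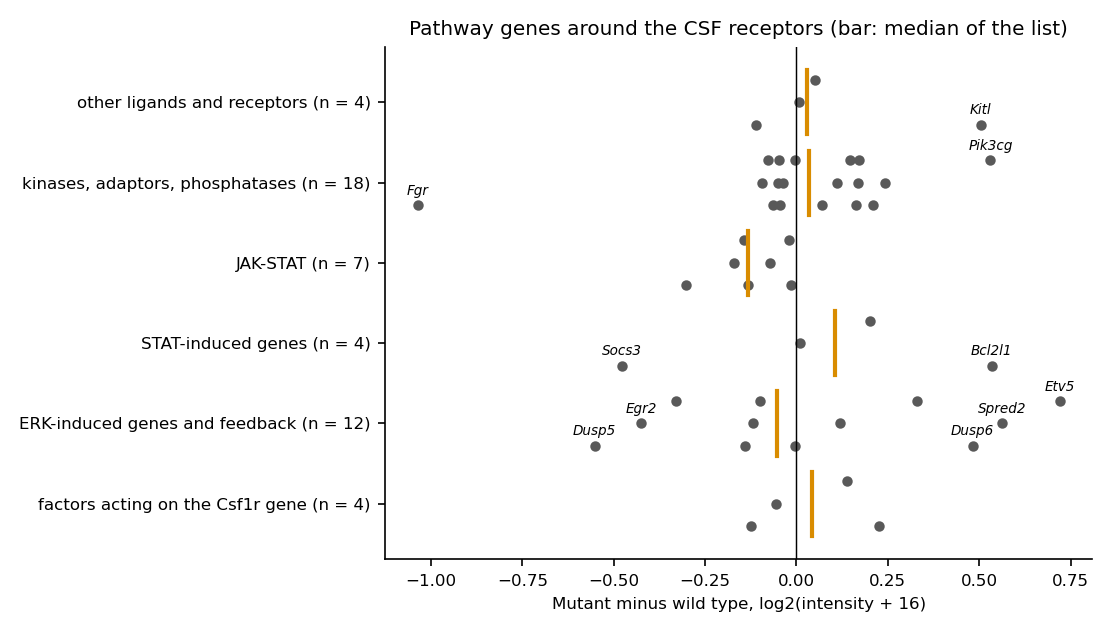
Each point is 1 of the 49 tested pathway genes, placed by its log2 difference between mutant and wild type and grouped by role, with an orange bar at the list's median. All 7 JAK-STAT genes lie left of 0, though their median in the pair of assay 3 was 0.01. Fgr (-1.04) is lowest, and none of the 49 passed the test.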

How the data were processed

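Each probe set had 1 deposited intensity on a linear scale for every array. GCOS and GCRMA are named in the submitters' processing notes, and no source used here gives their versions or order. GCRMA estimates background and makes the arrays alike in distribution, which presses dim probe sets towards a floor and would remove a shift of all genes. No further normalization was applied. Groups and replicate numbers came from the sample titles.

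The file listed 45101 probe sets. After 64 controls were removed, 34945 had 1 symbol. Values were transformed to log2(intensity + 16), so folds of dim genes are understated. Probe sets above the median (percentile 50) of their array on at least 3 arrays were tested with limma 3.58.1 in R 4.3.3 (lmFit and eBayes, two-sided, Benjamini-Hochberg over all 22497, threshold 0.05) without a block. Standard errors (SE) are limma's moderated ones, of the fit without a block unless stated, so they include the spread between assays. Of the 9 members 5 genes with 9 probe sets passed the filter; for pathway genes the brightest tested probe set was used. Samples of a group are separate assays, and p-values of the fit without a block measure the spread between these 3. With the block, and in the F test, they measure the spread left after group and replicate number are fitted.

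The members and gene lists were chosen with earlier results of these data known. Pathway genes were named by the smallest p, up to 4 per list, and like genes by the highest r, 3 per member. Any other gene named was chosen after its values were seen. Over probe sets, each array's deviation from its group mean correlated with that of the same-numbered array at 0.797, 0.671 and 0.845. With others it correlated at -0.618 to -0.0138. Deviations within a group sum to 0, so positive same-numbered values push the others below 0, and these add no support. From the same-numbered values, replicate numbers were treated as pairs and as the assays, which the labels do not state. The limma code was first tested on simulated data. The alternatives were pseudocounts of 1 and 64, no filter or one at percentile 70, quantile normalization, centring on percentile 75, the block fixed or random, gene means, and leaving out arrays or assays.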

Additional observations from a re-analysis of the deposited data

How the results depend on the processing

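The number of arrays and, for dim probe sets, the signal over background limit all results. No alternative brought one of the 5 tested members past the threshold, and the smallest adjusted p of a member by limma was 0.860, with the replicate block. The block, which pairs the arrays of an assay, changed no call for a member or pathway gene, and its differences equal those of the fit without it. A random replicate block called 1 of all probe sets (limma, adjusted p = 0.0499). The other alternatives for which calls were counted gave 0, as did the fit reported. Calls over all genes were not counted with gene means. The count of members higher in all 3 pairs was 0, but 1 with quantile normalization, 1 with centring on percentile 75 and 1 with gene means. With 1 assay left out, members lower in both remaining pairs numbered 0 to 3 and those higher 0 to 1. The 3 lower ones were Csf1r, Csf2rb and Csf3r without assay 3.

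Leaving out single arrays or 1 assay turned the sign of the following differences, each smaller than its SE. The log2 difference ranged from -0.17 to 0.048 for Csf1r, from -0.28 to 0.58 for Csf1, from -0.21 to 0.31 for Csf2ra, from -0.23 to 0.10 for Csf2rb and from -0.40 to 0.14 for Csf3r. Among pathway genes it ranged from -0.034 to 0.13 for Csf2rb2, -0.11 to 0.081 for Adam17, -0.20 to 0.58 for Cebpa, -0.51 to 0.19 for Cebpb, -0.072 to 0.35 for Runx1, -0.27 to 0.12 for Spi1, -0.79 to 0.038 for Egr2, -0.30 to 0.0027 for Jak2, -0.21 to 0.012 for Jak3, -0.055 to 0.36 for Osm, -0.36 to 0.41 for Pim1, -0.39 to 0.15 for Spred1 and -0.12 to 1.78 for Spred2. The median of the pathway genes ranged from -0.061 to 0.12, the latter without mutant array 3. With gene means Adam17 was at -0.11, Pik3cd at 0.0016, Pim1 at -0.043 and Runx1 at -0.028, and with quantile normalization Pim1 was at -0.0035.

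The F test between assays called 5251 probe sets, 259 without the filter on dim probe sets, and 0 to 3245 without 1 array, where fewer residual degrees of freedom remain. Csf3r also missed the threshold there with a pseudocount of 1 (limma, adjusted p = 0.0523) or 64 (0.0558).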
